A study of Mus musculus with 9 samples.

Results

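The transcripts of 10 genes of the circadian clock (Per1, Per2, Per3, Cry1, Cry2, Arntl, Clock, Nr1d1, Nr1d2 and Dbp) were followed in mouse retina after laser treatment. They were chosen by symbol from the 48679 names of the count table, and all 10 were found and passed the filter for low counts in each comparison. RNAseq was performed on 9 samples of C57BL/6J mice at an age of 12 weeks, and every sample combined 6 retinas, so n counts pools and not mice. In 3 samples all large veins of the eyes had been lasered (RVO), in 3 samples the eyes had received an equal scheme of laser spots that spared the large vessels (control), and 3 samples had no laser treatment (untreated). RVO and control retinas were taken 2 days after laser treatment and were fellow eyes of the same mice, which had been anaesthetised with ketamine and xylazine and injected with eosin Y as photosensitizer, whereas untreated retinas came from other mice. Mice of all groups, untreated ones included, had fundus imaging and rhodamine B angiography before they were killed. Mice were kept with 12 h of light per day. The time of day at which retinas were taken is not given in the sources used here. In the comparisons with untreated eyes, such a difference in time, the drugs and the laser treatment cannot be told apart.

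The circadian clock is a loop of transcription that runs in most cells of the body, and the retina has a clock of its own that prepares it for day and night. ARNTL (also called BMAL1) and CLOCK bind to E-boxes and switch on the Per and Cry genes, whose proteins return to the nucleus and inhibit ARNTL and CLOCK. In a side loop, the nuclear receptors NR1D1 and NR1D2 (REV-ERB alpha and beta) repress Arntl at RORE sites, where ROR receptors activate it. DBP, which is itself driven from E-boxes, activates genes with D-boxes, and NFIL3 represses them. In most tissues, transcripts of Dbp, Nr1d1 and the Per genes peak at other times of the day than that of Arntl.

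Promoters of 9 of the 10 genes were found in RefSeq (build GRCm38.p6, 250 bases before to 50 bases after each annotated start) and were searched on both strands for motifs of the loop. The E-box CACGTG was present in 7.15% of all 32851 promoter windows and the D-box TTANGTAA (N is any base) in 2.32%. The RORE-like pattern TNGGTCA was present in 11% and the CRE TGACGTCA in 1.79%. With any base at its N, TNGGTCA is looser than a RORE, so its matches are not called RORE sites here. Per1 and Cry1 each held 1 E-box, at -166 and -60 from the start. Per3 held D-boxes at -205 and -158 and a match to TNGGTCA at -118 on the opposite strand (printed as TGACCAA). Arntl held matches to TNGGTCA at -246 (TTGGTCA), -227 (TCGGTCA) and 31 (TAGGTCA) from the second of its annotated starts. Cry2 held one at -133 on the opposite strand (TGACCAA). None of these motifs was found in the windows of Clock, Nr1d1, Nr1d2 and Dbp, and no window of these genes held a CRE. A match describes the letters of a window and not a bound site. The windows of Per1 (chr11:69098699-69098998, plus strand), Cry1 (chr10:85185005-85185304, minus strand), Per3 (chr4:151044616-151044915, minus strand) and Arntl (chr7:113207261-113207560, plus strand) are shown because they hold matches to the searched patterns. These matches are given in capitals.
Per1: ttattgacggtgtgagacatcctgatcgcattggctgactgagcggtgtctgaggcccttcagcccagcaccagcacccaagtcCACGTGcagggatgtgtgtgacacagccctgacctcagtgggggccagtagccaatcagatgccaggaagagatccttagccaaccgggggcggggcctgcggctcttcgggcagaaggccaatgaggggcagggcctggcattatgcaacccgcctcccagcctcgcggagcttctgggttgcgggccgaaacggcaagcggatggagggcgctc
Cry1: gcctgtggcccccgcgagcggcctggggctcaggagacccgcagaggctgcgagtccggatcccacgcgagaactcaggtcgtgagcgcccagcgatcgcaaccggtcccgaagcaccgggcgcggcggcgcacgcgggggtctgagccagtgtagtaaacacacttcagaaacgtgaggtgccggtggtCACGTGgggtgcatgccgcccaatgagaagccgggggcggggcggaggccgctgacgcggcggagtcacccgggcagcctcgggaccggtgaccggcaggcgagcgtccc
Per3: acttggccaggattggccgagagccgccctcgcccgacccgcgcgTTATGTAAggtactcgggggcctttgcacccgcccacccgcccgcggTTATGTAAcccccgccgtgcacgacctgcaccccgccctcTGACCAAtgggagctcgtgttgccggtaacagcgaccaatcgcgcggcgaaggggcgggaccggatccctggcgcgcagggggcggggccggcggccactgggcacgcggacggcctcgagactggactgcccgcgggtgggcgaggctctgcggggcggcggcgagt
Arntl: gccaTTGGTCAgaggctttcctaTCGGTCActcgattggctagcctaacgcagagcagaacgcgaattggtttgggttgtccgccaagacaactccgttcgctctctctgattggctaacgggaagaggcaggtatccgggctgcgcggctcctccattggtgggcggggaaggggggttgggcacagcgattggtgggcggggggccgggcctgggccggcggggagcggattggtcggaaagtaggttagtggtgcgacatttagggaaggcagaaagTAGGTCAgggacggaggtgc

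Total counts were 12377572 to 15245869 in untreated, 18897218 to 23419497 in control and 21022997 to 28993921 in RVO samples. Levels are given as CPM, counts per 1e6 after TMM scaling of the libraries over all 9 samples. The summed level of 10 rod markers was 91250 to 92880 CPM in untreated, 57500 to 69810 CPM in control and 47260 to 51180 CPM in RVO samples, and each of these markers fell in RVO against untreated eyes. The same was true for all 6 ganglion cell and all 5 amacrine cell markers. Of the cone, bipolar and Mueller cell markers, 5 of 6, 4 of 5 and 3 of 6 were lower (edgeR, adjusted p under 0.01) and 0 higher. In contrast, 4 of 6 monocyte and macrophage markers were higher. Their summed level was 13.6 to 18.7 CPM in untreated, 46.9 to 65.9 CPM in control and 111.5 to 131 CPM in RVO samples. In such bulk samples, fewer cells of a type and less RNA per cell cannot be told apart, and the part of these shifts in the changes of clock genes was not tested. RVO replicate 2 stood apart, with 460.2 CPM of ganglion cell markers against 197 and 256 CPM in the other RVO samples. Lens markers were high in RVO replicate 2, with 3256 CPM against 119 and 275 CPM in the other RVO samples, and in control replicate 1, with 1782 CPM against 228 and 130.1 CPM in the other control samples. RVO replicate 2 was the RVO sample nearest to the control mean for 9 of the 10 clock genes and for 64.4% of all tested genes. Results are therefore also given without this sample where it matters. Where it lies nearest to the control mean, leaving it out tends to widen differences from control eyes, so such results are no added support.

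Per1 rose, and Clock and Nr1d2 fell, in both groups of laser-treated eyes. In control eyes, Cry2 and Dbp were also higher and Arntl and Cry1 lower than in untreated eyes, and in RVO eyes Per3 was lower. Thus, comparing RVO with untreated eyes, 1 of the 10 clock genes was higher and 3 were lower (edgeR, adjusted p under 0.01 by Benjamini-Hochberg), while 27.4% of 16380 tested genes were higher and 24.6% lower, in sum 52.1%. In control against untreated eyes, 3 were higher and 4 lower, while 27.2% of 16066 tested genes were higher and 25.2% lower, in sum 52.4%. Between RVO and control eyes, 0 of the 10 passed, while 2.7% of 16874 tested genes were higher and 0.634% lower, in sum 3.34%. At an adjusted p under 0.05, clock genes with a higher and a lower level numbered 1 and 4 in RVO against untreated eyes (all tested genes 34.4% and 32.5%, in sum 66.9%), 4 and 4 in control against untreated eyes (33% and 31.4%, in sum 64.4%) and 0 and 4 in RVO against control eyes (17.5% and 17.1%, in sum 34.6%). The samples of both groups did not overlap for 7, 7 and 6 clock genes in these 3 comparisons, against 73.4%, 70% and 52.5% of all tested genes.

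The changes of these 10 genes were small beside those of all tested genes in RVO eyes. Regardless of direction, their median log2 fold change was 0.28 in RVO and 0.35 in control against untreated eyes, where that of all tested genes was 0.57 and 0.40. With direction, the medians of the clock genes were -0.26 and -0.02, against 0.01 and 0.01 for all tested genes. For 16 further genes of the clock, described after the ratios, the medians regardless of direction were 0.64 in RVO and 0.39 in control against untreated eyes and 0.31 in RVO against control eyes, where that of all tested genes was 0.28. Scaling by library size only moved the median log2 fold change of all tested genes up by 0.21 and 0.17. Clock genes called were then 2 higher and 2 lower in RVO and 4 higher and 3 lower in control eyes. Of all genes called, 68.5% were then higher in RVO and 70.4% in control eyes, against 52.7% and 51.9% with TMM scaling. The move of clock genes towards higher calls is therefore no result about clock genes alone.

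**Figure D1:**
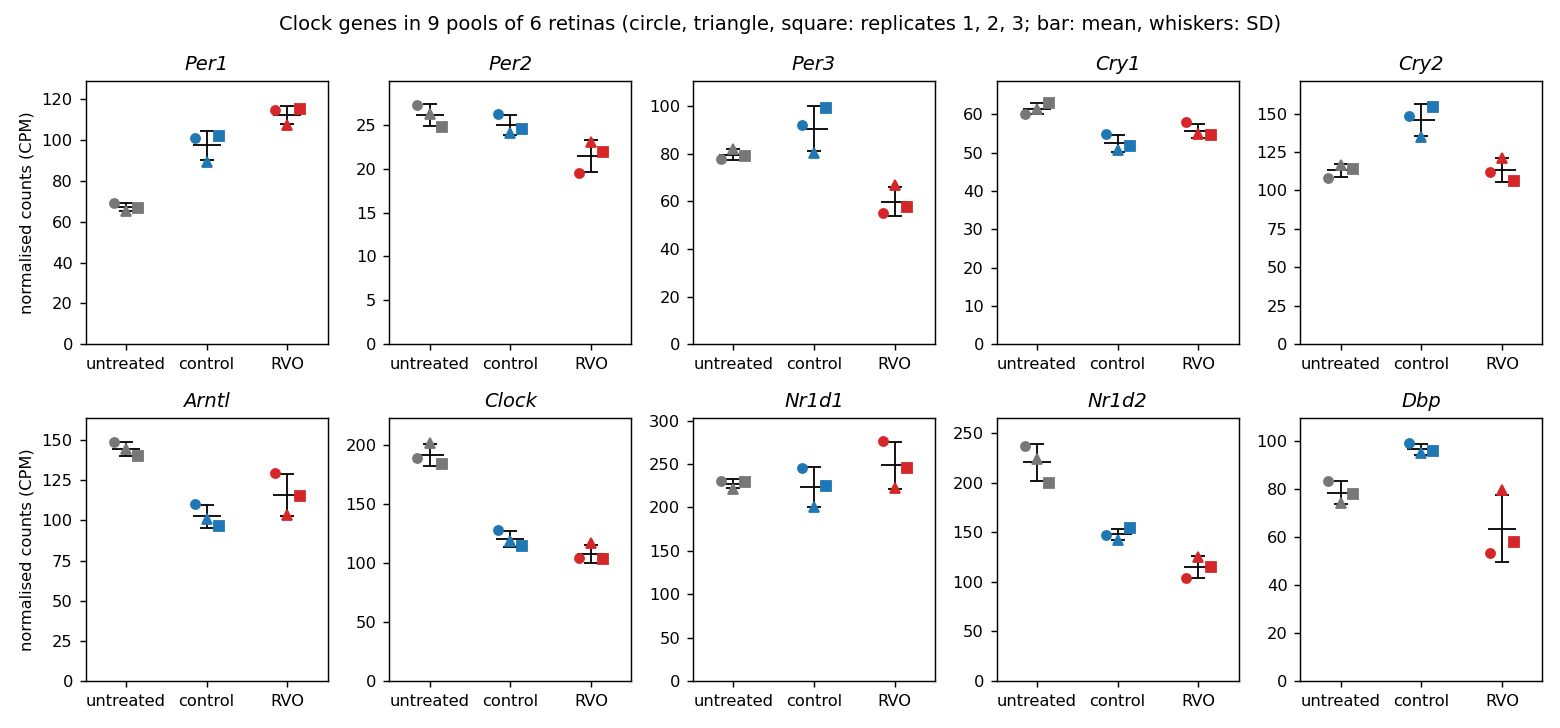
Normalised counts (CPM, y axis from 0) of the 10 clock genes in untreated, control and RVO samples (x axis), where circles, triangles and squares are replicates 1, 2 and 3, horizontal bars are means and whiskers are SD. Per1 was higher and Clock and Nr1d2 were lower in all 6 laser-treated samples than in all untreated samples, and Dbp of RVO replicate 2, at 79.8 CPM, lay among the untreated samples.

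Per1, the Period gene that also responds quickly to stimuli from outside the clock, had 69.2, 65.4 and 66.6 CPM in the untreated samples, 101, 89.4 and 102 CPM in the control samples and 115, 107 and 115 CPM in the RVO samples. The 3 groups formed steps without overlap. Against untreated eyes, Per1 was 1.71-fold higher in RVO eyes (edgeR, log2 fold change 0.78 ± 0.07 SE, adjusted p = 5.44e-05). In control eyes it was 1.47-fold higher (edgeR, log2 fold change 0.56 ± 0.06 SE, adjusted p = 5.57e-06). The step from control to RVO eyes had a log2 fold change of 0.21 (95% interval 0.03 to 0.38) and did not pass (edgeR, adjusted p = 0.0679). Both comparisons with untreated eyes use the same untreated samples, for Per1 and for all genes that follow.

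The other Period genes did not follow Per1. Per3, which is not needed for the rhythm itself, had 77.7, 82.2 and 78.9 CPM in the untreated samples, 92.3, 80.4 and 99.1 CPM in the control samples and 55.2, 66.7 and 57.7 CPM in the RVO samples. The RVO samples lay below all others, and control and untreated samples overlapped. Per3 fell in RVO against untreated eyes (edgeR, log2 fold change -0.38 ± 0.09 SE, adjusted p = 0.00505). It did not pass with scaling by library size only (log2 fold change -0.17, adjusted p = 0.113), without the filter for low counts (adjusted p = 0.0126) or when RVO replicate 1 or 3 or any untreated sample was left out (adjusted p between 0.0157 and 0.0274). Without RVO replicate 2 it passed (log2 fold change -0.45, adjusted p = 7.098e-05). In control eyes Per3 had a log2 fold change of 0.21 against untreated ones (edgeR, adjusted p = 0.0206). This value passed with scaling by library size only (0.38, adjusted p = 0.000398), without the filter for low counts (adjusted p = 0.00147) and without control replicate 2 (0.28, adjusted p = 0.00179).

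Per2, a Period gene that is needed for a stable rhythm, had the lowest counts of the clock genes. It had 27.3, 26.3 and 24.7 CPM in the untreated samples, 26.3, 24.1 and 24.5 CPM in the control samples and 19.5, 23 and 21.9 CPM in the RVO samples. RVO samples were below all others by a small margin. Per2 passed in no comparison, with a log2 fold change of -0.25 between RVO and untreated eyes (95% interval -0.48 to -0.02, edgeR, adjusted p = 0.0506) and of -0.04 between control and untreated eyes (95% interval -0.21 to 0.13).

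The cryptochromes, the strongest inhibitors of ARNTL and CLOCK, changed in opposite directions in control eyes. Cry2 had 108, 117 and 114 CPM in the untreated samples, 148, 135 and 154 CPM in the control samples and 112, 121 and 106 CPM in the RVO samples. The control samples stood above all others, and RVO and untreated samples overlapped. Cry2 was 1.305-fold higher in control eyes than without laser (edgeR, log2 fold change 0.38 ± 0.06 SE, adjusted p = 9.88e-05). RVO and untreated eyes had a log2 fold change of 0.03, with a 95% interval of -0.14 to 0.20. Exons of Cry2 share 295 bases with D930015M05Rik on the opposite strand, which had at most 1.09 CPM.

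Cry1 differed by little between the groups. It had 60.2, 61.4 and 62.98 CPM in the untreated samples, 54.9, 50.7 and 51.8 CPM in the control samples and 57.9, 54.8 and 54.6 CPM in the RVO samples. All laser-treated samples lay below the untreated ones, by a few CPM. Cry1 fell in control eyes (edgeR, log2 fold change -0.21 ± 0.06 SE, adjusted p = 0.00653), but did not pass with scaling by library size only (log2 fold change -0.04, adjusted p = 0.606), with DESeq2 (adjusted p = 0.0139), with other filters, with all samples in 1 fit, or without control replicate 2 or 3 or untreated replicate 2 or 3 (adjusted p between 0.0168 and 0.0247). In RVO eyes Cry1 had a log2 fold change of -0.11 (95% interval -0.27 to 0.05), and it passed after removal of trends with GC content and length (-0.30, edgeR, adjusted p = 0.00462).

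Of the activating pair, Clock fell in both groups of laser-treated eyes and Arntl in control eyes. Clock had 189, 202 and 184 CPM in the untreated samples, 128, 118 and 115 CPM in the control samples and 104, 117 and 103 CPM in the RVO samples. All laser-treated samples were far below the untreated ones, and RVO and control samples overlapped. Clock fell to 0.576 of the untreated level in RVO eyes (edgeR, log2 fold change -0.79 ± 0.08 SE, adjusted p = 6.59e-05) and to 0.637 in control eyes (log2 fold change -0.65 ± 0.06 SE, adjusted p = 1.23e-06).

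Arntl, the partner of CLOCK without which the rhythm stops, had 149, 145 and 140 CPM in the untreated samples, 110.4, 101 and 96.6 CPM in the control samples and 129, 103 and 115 CPM in the RVO samples. All laser-treated samples were below the untreated ones, and RVO and control samples overlapped. Arntl fell in control eyes (edgeR, log2 fold change -0.48 ± 0.06 SE, adjusted p = 1.46e-05). In RVO eyes its log2 fold change of -0.29 did not pass (95% interval -0.50 to -0.08, edgeR, adjusted p = 0.0229). It passed with all 9 samples in 1 fit (-0.32, adjusted p = 0.00677) and without RVO replicate 1 (-0.36, adjusted p = 0.00618), and with scaling by library size only it was -0.07 (adjusted p = 0.527). Exons of Arntl share 33 bases with Gm45355 on the opposite strand.

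The REV-ERB genes, whose proteins repress Arntl in partly redundant ways, differed from each other. Nr1d2 had 237, 224 and 200.3 CPM in the untreated samples, 147, 143 and 154 CPM in the control samples and 104, 126 and 115 CPM in the RVO samples. The 3 groups again formed steps without overlap, downwards. Nr1d2 fell to 0.532 of the untreated level in RVO eyes (edgeR, log2 fold change -0.91 ± 0.09 SE, adjusted p = 0.0001), which was the largest fold change among the 10 genes. In control eyes it fell to 0.68 (edgeR, log2 fold change -0.56 ± 0.06 SE, adjusted p = 9.19e-06).

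Nr1d1 had 231, 221 and 229 CPM in the untreated samples, 246, 199.9 and 225 CPM in the control samples and 277, 222 and 246 CPM in the RVO samples. The groups overlapped, and RVO replicate 1 was the highest sample. Nr1d1 passed in no comparison, with 95% intervals of the log2 fold change of -0.15 to 0.14 in control and -0.04 to 0.37 in RVO against untreated eyes. The value in RVO eyes passed without RVO replicate 2 (edgeR, log2 fold change 0.25, adjusted p = 0.00478) and with scaling by library size only (0.38, adjusted p = 0.00727), and it changed sign after removal of trends with GC content and length (-0.05). Exons of Nr1d1 share 263 bases, 8.5% of their length, with the thyroid hormone receptor gene Thra on the opposite strand. Libraries kept the strand, but whether the counting used it is not given, so that Nr1d1, Dbp, Cry2 and Arntl are uncertain to the extent of their overlaps. Thra had 276 to 286 CPM in untreated, 302 to 322 CPM in control and 159.7 to 255 CPM in RVO samples.

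Dbp, the output gene that is known for a wide daily swing, differed between the laser-treated groups about as much as Per3 did, without overlap of their samples. It had 83.6, 74.1 and 78.2 CPM in the untreated samples, 99.2, 95.03 and 95.9 CPM in the control samples and 53.2, 79.8 and 57.9 CPM in the RVO samples. Control samples lay above the untreated ones, RVO replicates 1 and 3 below, and RVO replicate 2 among them. Dbp was 1.25-fold higher in control eyes than without laser (edgeR, log2 fold change 0.32 ± 0.06 SE, adjusted p = 0.000334). It did not pass with all 9 samples in 1 fit (adjusted p = 0.0725) or after removal of trends with GC content and length (log2 fold change 0.19, adjusted p = 0.0135). Against untreated eyes, RVO eyes had a log2 fold change of -0.28 (edgeR, adjusted p = 0.124), or -0.45 without RVO replicate 2 (adjusted p = 0.000162). Exons of Dbp share 539 bases, 18% of their length, with the sphingosine kinase gene Sphk2 on the opposite strand, which had 10.6 to 13.4 CPM in untreated, 24.6 to 28.02 CPM in control and 32.1 to 40.95 CPM in RVO samples.

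**Figure D2:**
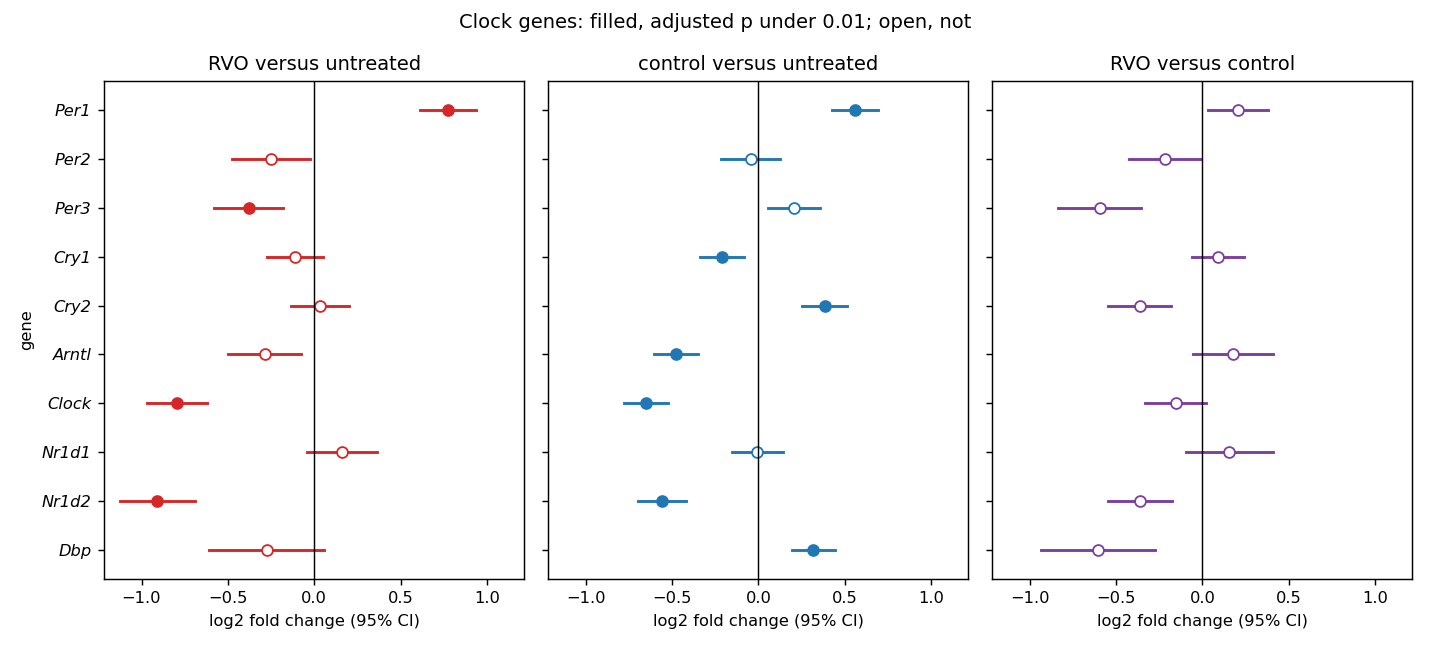
Log2 fold changes (points, x axis) with 95% intervals from edgeR (lines) of the 10 clock genes (y axis) in the 3 comparisons (panels), filled where the adjusted p was under 0.01. Per1 lies to the right of 0 and Clock and Nr1d2 to the left in both comparisons with untreated eyes, Cry2 and Dbp are filled on the right in control eyes, and no point is filled between RVO and control eyes.

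The comparison of RVO and control eyes sets laser treatment of veins against laser treatment between the large vessels in the same animals. The paper reports that part of the occluded veins re-opened over the following days. RVO pools may therefore hold eyes with re-opened veins, and occlusion cannot be told apart from the different site of the laser spots. Samples were tested as unpaired, because which pools hold fellow eyes is not given. No clock gene passed at an adjusted p under 0.01 with edgeR, although 6 had an unadjusted p under 0.05, and DESeq2 called 4 at the same threshold. The shares of all tested genes beside the 6 and the 4 are not given here, so these counts are no result about clock genes alone. With edgeR at an adjusted p under 0.05, 4 genes were lower in RVO eyes. These were Dbp (log2 fold change -0.60 ± 0.14 SE, adjusted p = 0.0184), Per3 (-0.60 ± 0.10 SE, adjusted p = 0.0109), Cry2 (-0.36 ± 0.08 SE, adjusted p = 0.0154) and Nr1d2 (-0.36 ± 0.08 SE, adjusted p = 0.0162). Without RVO replicate 2, the log2 fold changes were -0.82 for Dbp, -0.70 for Per3, -0.43 for Cry2 and -0.45 for Nr1d2, and all 4 passed at 0.01 (edgeR, adjusted p between 1.21e-05 and 0.000876). For each of these genes, RVO replicate 2 was the RVO sample nearest to control eyes. Leaving it out therefore widens the differences and gives no added support. How many of all tested genes passed in this fit is not given here. Without RVO replicate 3, control replicate 1 or control replicate 3, none of these 4 genes passed even at 0.05 (edgeR, adjusted p between 0.0527 and 0.0821), and without control replicate 2 Dbp did not (adjusted p = 0.0522). For the activators, the 95% intervals were -0.33 to 0.02 for Clock and -0.05 to 0.41 for Arntl.

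Per length of exon, Nr1d1 had the highest level of the clock genes in untreated retina (73.8 ± 1.71 CPM per kb, SD, n = 3), followed by Nr1d2 (40.8 ± 3.46) and Dbp (26.3 ± 1.601). Arntl, Cry1 and Cry2 came next at 19.2, 18.4 and 17.9 CPM per kb, and neighbours among these overlapped. Clock (13.9), Per1 (11.9), Per3 (8.29) and Per2 (4.46 CPM per kb) followed without overlap. In control eyes Dbp (32.3 ± 0.742) stood above Nr1d2 (27.4 ± 1.04), and Per1 (17.3 ± 1.25) above Arntl (13.6 ± 0.941). In RVO eyes Nr1d2, Dbp, Per1 and Cry2 lay between 16.8 and 26.6 CPM per kb, each overlapping with the next. Nr1d1 was first and Per2 last in all 3 groups. Lengths were those of all annotated exons together, which understates genes with long optional exons, such as Clock with 13.7 kb.

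Ratios of genes within a sample do not depend on the scaling of libraries. The log2 ratio of Dbp to Arntl, which peak at different times of the day in most tissues, was -0.83, -0.97 and -0.84 in the untreated samples, -0.15, -0.08 and -0.01 in the control samples and -1.28, -0.37 and -0.99 in the RVO samples. The control samples were above all others, and the RVO samples spread to both sides of the untreated ones, with replicate 2 the highest. The means differed by 0.80 between control and untreated eyes and by -0.80 between RVO and control eyes (two-sided exact permutation tests, p = 0.1 each, the smallest p that 3 against 3 samples can give). Between RVO and untreated eyes they differed by -0.001 (exact p = 1). This small difference depends on RVO replicate 2 (-0.37), as RVO replicates 1 and 3 (-1.28 and -0.99) lay below all untreated samples. The log2 ratio of Per3 to Arntl took a like course, with -0.86 ± 0.07 in untreated, -0.18 ± 0.19 in control and -0.95 ± 0.30 in RVO eyes (mean ± SD, n = 3).

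The ratios of Nr1d1 and of Per1 to Arntl separated laser-treated from untreated eyes. That of Nr1d1 to Arntl was 0.65 ± 0.05 in untreated, 1.12 ± 0.12 in control and 1.10 ± 0.01 in RVO eyes (mean ± SD on the log2 scale, n = 3). That of Per1 to Arntl was -1.11 ± 0.04, -0.07 ± 0.13 and -0.04 ± 0.12. In both, RVO and control samples overlapped. The ratios of Per1 and of Nr1d2 to Arntl were added after the data were seen. That of Nr1d2 to Arntl was 0.61 ± 0.08, 0.53 ± 0.13 and -0.01 ± 0.30, with the RVO samples below all others, and its control and untreated samples overlapped (difference of means -0.08, two-sided exact permutation test, p = 0.5).

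Ratios between close relatives among the clock genes were added after the data were seen. They restate the changes of the single genes and are no separate support. From untreated to control to RVO eyes, the log2 ratio of Per1 to Per3 was -0.25 ± 0.08, 0.11 ± 0.06 and 0.91 ± 0.20, and that of Nr1d1 to Nr1d2 was 0.04 ± 0.13, 0.59 ± 0.13 and 1.11 ± 0.29 (mean ± SD, n = 3). Both went up in steps without overlap of the groups. The log2 ratio of Cry1 to Cry2 was lowest in control eyes, with -1.47 ± 0.09, against -0.88 ± 0.04 in untreated and -1.02 ± 0.11 in RVO eyes. Of 30 exact permutation tests of ratios, 25 gave the smallest possible p = 0.1, and no p adjusted over them can be lower. The share among other pairs of genes is not given here. Of all tested single genes, groups did not overlap for 73.4% (RVO against untreated), 70% (control against untreated) and 52.5% (RVO against control). The count of 25 is therefore no result about clock genes alone.

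**Figure D3:**
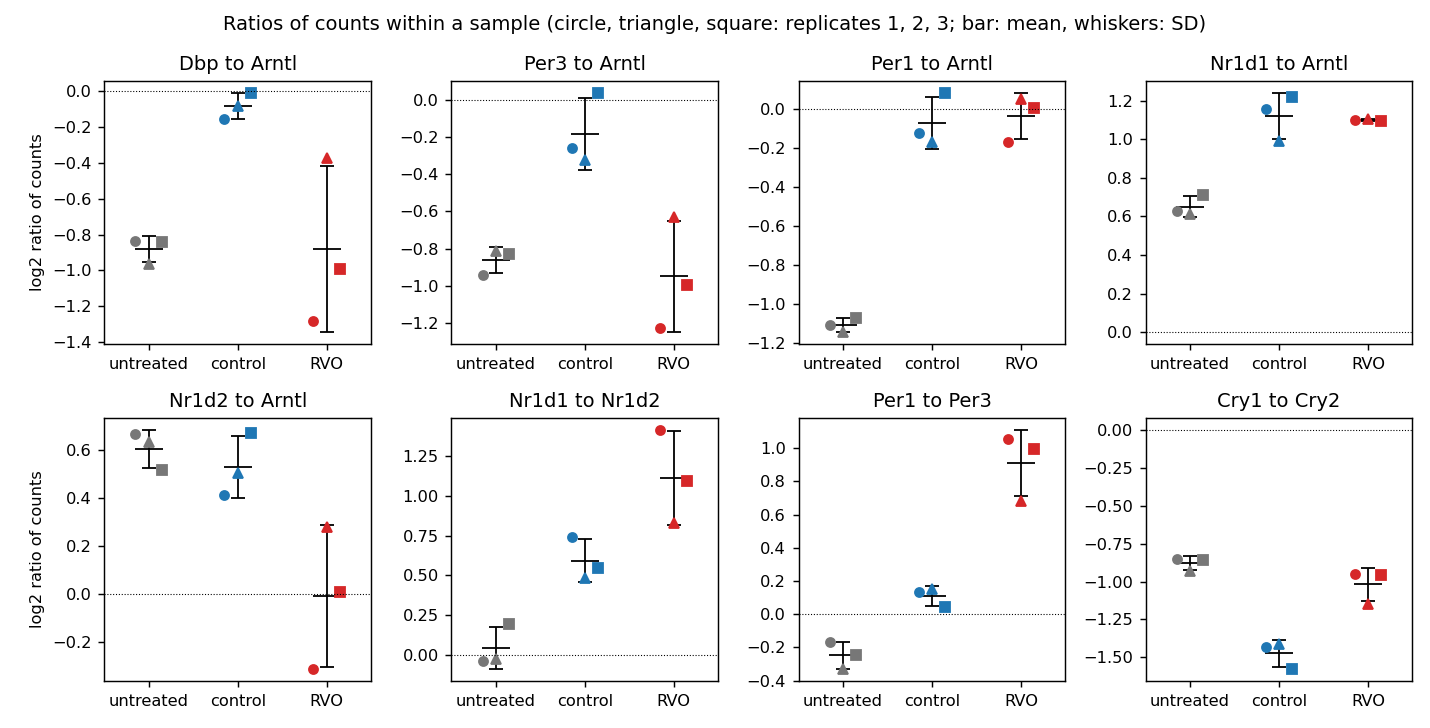
Log2 ratios of the counts of 2 clock genes within each sample (y axis, each panel with its own range, dotted line at 0 where both counts are equal) in untreated, control and RVO samples (x axis), where circles, triangles and squares are replicates 1, 2 and 3, bars are means and whiskers are SD. Dbp to Arntl and Per3 to Arntl are highest in the control samples with RVO replicate 2 nearest to them, and Per1 to Per3 and Nr1d1 to Nr1d2 go up in steps.

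Of 16 further genes of the clock, comparing RVO with untreated eyes, 5 were higher and 5 lower at an adjusted p under 0.01 (edgeR), 5 were higher and 3 lower in control eyes against untreated ones, and 1 was lower in RVO against control eyes. In sum, 10, 8 and 1 of the 16 were called, while 52.1%, 52.4% and 3.34% of all tested genes were. Their median log2 fold changes were 0.11, 0.13 and -0.04 in these comparisons. Rora and Rorb, whose products can activate Arntl at the sites of NR1D receptors, were lower in laser-treated than in untreated eyes. Rora had 357, 379 and 348 CPM in the untreated samples, 234, 218 and 223 CPM in the control samples and 171, 215 and 165 CPM in the RVO samples. It fell in RVO (edgeR, log2 fold change -0.94, adjusted p = 0.000126) and in control eyes (-0.66, adjusted p = 7.15e-07), and so did Rorb (-0.91 and -0.55).

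Npas2, which can take the place of CLOCK beside ARNTL, had 4.27 to 4.69 CPM in untreated, 3.69 to 4.25 CPM in control and 1.85 to 2.51 CPM in RVO samples. It fell in RVO eyes (edgeR, log2 fold change -1.05, adjusted p = 0.00168) and had a log2 fold change of -0.17 in control eyes (adjusted p = 0.34). Bhlhe40 (also called DEC1), which competes for E-boxes and is also induced by hypoxia, had 69.5, 71.6 and 68.7 CPM in the untreated samples, 97.01, 96.4 and 86.3 CPM in the control samples and 131, 113 and 103 CPM in the RVO samples. It rose in RVO (edgeR, log2 fold change 0.76, adjusted p = 0.000254) and in control eyes (0.43, adjusted p = 4.22e-05). Its relative Bhlhe41 rose in RVO eyes (edgeR, 0.44, adjusted p = 0.00163), but did not pass without untreated replicate 2 or 3. Ciart, another inhibitor of ARNTL and CLOCK, had 10.7 to 12.1 CPM in untreated, 12.2 to 14.9 CPM in control and 17.1 to 26.2 CPM in RVO samples and was 2.002 times as high in RVO as in untreated eyes (edgeR, adjusted p = 0.00108).

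The genes that act at D-boxes took different courses. Nfil3, the repressor, had 17.7, 16.9 and 16.2 CPM in the untreated samples, 20.1, 21.04 and 20.02 CPM in the control samples and 46.3, 35.3 and 30.3 CPM in the RVO samples. It rose in RVO eyes (edgeR, log2 fold change 1.17, adjusted p = 0.000347). In control eyes it passed narrowly (0.29, adjusted p = 0.00995) and did not pass with DESeq2 or when any 1 sample was left out. Hlf, an activator related to DBP, fell in steps, with 287, 291 and 268 CPM in the untreated samples, 194, 187 and 194 CPM in the control samples and 77.2, 136 and 92.5 CPM in the RVO samples (edgeR, log2 fold change -1.44 in RVO and -0.54 in control eyes, adjusted p = 0.000246 and 2.51e-06). The call in control eyes was lost with all 9 samples in 1 fit. Tef, the remaining activator, had 220.4, 219.8 and 240 CPM in the untreated samples, 305, 295 and 332 CPM in the control samples and 219, 260.1 and 222 CPM in the RVO samples. As for Dbp and Cry2, its control samples were above all others, and it rose in control eyes (edgeR, log2 fold change 0.47, adjusted p = 2.54e-05). Between RVO and control eyes, the log2 fold changes were 0.88 for Nfil3, -0.91 for Hlf and -0.41 for Tef, which did not pass at 0.01 (edgeR, adjusted p between 0.011 and 0.0145).

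Of the genes that set the lifetime of PER and CRY proteins, the kinase gene Csnk1d rose in RVO and control eyes (edgeR, log2 fold changes 0.81 and 0.57). Btrc, which marks PER proteins for degradation, had 159.5, 166 and 163 CPM in the untreated samples, 153, 147 and 157 CPM in the control samples and 106, 120.2 and 107 CPM in the RVO samples. It fell in RVO against untreated eyes (edgeR, log2 fold change -0.52, adjusted p = 0.000364) and was the clock gene that passed between RVO and control eyes (-0.45, adjusted p = 0.00977). The latter call was lost when any 1 sample other than RVO replicate 2 was left out (adjusted p up to 0.0566). It was also lost with a filter of at least 10 CPM in 3 samples and with a block for the replicate number. Timeless, named after a clock gene of the fly, rose in control eyes (edgeR, 0.74, adjusted p = 0.00151), except without untreated replicate 2.

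**Figure D4:**
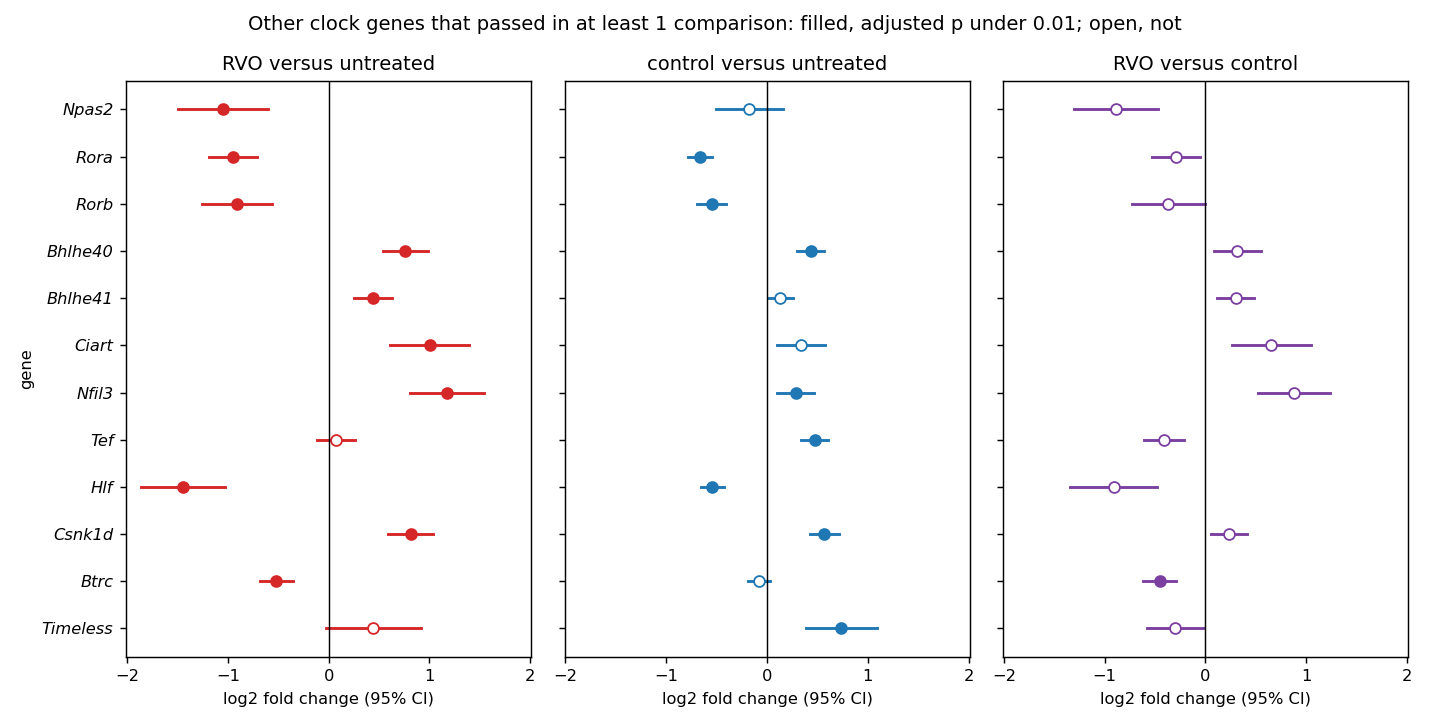
Log2 fold changes (points, x axis) with 95% intervals from edgeR (lines) of the 12 further clock genes (y axis) that passed in at least 1 of the 3 comparisons (panels), filled where the adjusted p was under 0.01. Rora, Rorb and Hlf lie to the left of 0 and Bhlhe40, Nfil3 and Csnk1d to the right in both comparisons with untreated eyes, and Btrc is the filled point between RVO and control eyes.

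Of 9 genes of dopamine, melatonin and melanopsin signalling that serve daily rhythms in the retina, 7 were tested. In RVO against untreated eyes 1 was higher and 3 were lower, in control against untreated eyes 2 were higher and 1 lower, and in RVO against control eyes 1 was higher (edgeR, adjusted p under 0.01). These were 4, 3 and 1 of the 7, beside 52.1%, 52.4% and 3.34% of all tested genes. Drd4, the dopamine receptor gene of photoreceptors, whose transcript has a daily rhythm, had 100.5, 111 and 127 CPM in the untreated samples, 177, 157 and 183 CPM in the control samples and 344, 256 and 294 CPM in the RVO samples. The groups formed steps upwards, in contrast to the rod markers. Drd4 was 2.71-fold higher in RVO eyes and 1.54-fold higher in control eyes against untreated eyes (edgeR, adjusted p = 4.96e-05 and 2.19e-05). It was 1.74-fold higher in RVO against control eyes (edgeR, adjusted p = 0.00928). This call was lost when any 1 sample other than RVO replicate 2 was left out (adjusted p up to 0.0565). A filter of at least 10 CPM in 3 samples and a block for the replicate number lost it as well.

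Adcy1, a cyclase gene that acts with DRD4 in photoreceptors, rose in control eyes (edgeR, log2 fold change 0.29, adjusted p = 0.00208), except with all 9 samples in 1 fit or without untreated replicate 1. Th, the rate-limiting enzyme of dopamine synthesis, and the dopamine receptor genes Drd1 and Drd2 fell in RVO eyes (edgeR, log2 fold changes -1.30, -1.25 and -2.20, adjusted p = 0.00839, 0.0026 and 0.000778). Th did not pass without any 1 sample other than RVO replicate 2, and Drd1 not without RVO replicate 3 or any untreated sample. Drd2 had 29.8, 32.6 and 27.2 CPM in the untreated samples, 18.5, 17.8 and 19.4 CPM in the control samples and 3.73, 10.8 and 4.71 CPM in the RVO samples, and it fell in control eyes as well (edgeR, -0.67, adjusted p = 2.64e-05), except with all 9 samples in 1 fit (adjusted p = 0.0662). All 3 genes were highest in replicate 2 among the RVO samples, as were the ganglion and amacrine cell markers.

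Glucocorticoids can reset clocks through Per1. Of 5 genes that they induce, Sgk1 and Zbtb16 fell in RVO against untreated eyes (edgeR, log2 fold changes -0.38 and -0.95) and Sgk1 and Klf9 in control eyes (-0.49 and -0.19) (adjusted p under 0.01). These were 2 of the 5 in each comparison, beside 52.1% and 52.4% of all tested genes. The list was mixed. Fkbp5 did not pass but was higher in RVO than in untreated eyes (edgeR, log2 fold change 0.26, adjusted p = 0.0251). Tsc22d3 was lower in RVO (-0.33, adjusted p = 0.0174) and higher in control eyes (0.17, adjusted p = 0.0574), and did not pass either. A part of glucocorticoids in the clock genes was not tested. Klf9 did not pass in 11 of the 15 alternatives, Zbtb16 not without RVO replicate 3 or untreated replicate 2 or 3, and Sgk1 in RVO eyes not with scaling by library size only or after removal of trends with GC content and length.

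The genes with the pattern most like that of Dbp over the 9 samples, by the root-mean-square difference of centred log2 CPM among 8317 candidates, were Col6a2 (0.06), Ppp1r9b (0.06), Fbxo44 (0.06), Pde1b (0.07) and Ndn (0.08). Ppp1r9b, for example, had 192 ± 2.28 CPM in untreated, 230.0 ± 9.33 CPM in control and 153 ± 31.7 CPM in RVO eyes (SD, n = 3). Those most like Arntl among 9119 candidates were Cep76, Nup160, Xrn2, Qrich1 and Eif2a, at 0.05 each. Xrn2 had 117 ± 3.42 CPM in untreated, 83.6 ± 4.59 CPM in control and 92.4 ± 7.72 CPM in RVO eyes (SD, n = 3).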

How the data were processed

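The authors aligned single-end reads to the mouse genome using STAR 2.5.2b and Gencode vM11 (GRCm38), counted them per gene with featureCounts of Subread 1.5.1, and deposited raw counts without normalization. Per the labels, samples were assigned to 3 groups, and 0 columns were left unused. The 92 spike-in names were not analysed. In R 4.3.3, edgeR 4.0.16 was used with filterByExpr, TMM scaling and quasi-likelihood tests, with 1 fit per pair of groups, Benjamini-Hochberg adjustment over all tested genes, and 0.01 as threshold, as in the study. The scripts were tested on simulated data of RVO and untreated samples with changes set in 200 genes. At 0.01, 66% of the 2-fold and 99% of the 4-fold changes were found, with 5 false calls. Smaller changes were not simulated, so a gene that did not pass may still have changed. Gene positions, exon lengths and overlaps were taken from GENCODE vM21 on the same build.

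The clock genes and the other lists were chosen with earlier results of these data known. Ratios other than Dbp to Arntl, Dbp to Clock, Dbp to Npas2, Nr1d1 to Arntl and Per3 to Arntl were added after the data were seen. Named are the 10 clock genes, listed genes that passed in at least 1 comparison, genes with exons that overlap a clock gene, and the 5 genes nearest in pattern to Dbp and to Arntl. Fkbp5 and Tsc22d3 are named as well, to complete the list of genes induced by glucocorticoids. The alternatives were RLE factors or library size only for scaling, no filter or at least 10 CPM in 3 samples, DESeq2 1.42.0, all 9 samples in 1 fit, a block for the replicate number, a threshold of 0.05, removal of GC and length trends (known for at least 95.4% of genes), and leaving out each sample. Results of 2 listed genes are not reported here. P-values measure the spread between pools.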

Additional observations from a re-analysis of the deposited data

How the results depend on the processing

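Without 1 sample, 3 to 6 of the 10 clock genes were called between RVO and untreated eyes and 6 to 7 between control and untreated eyes, and the other alternatives gave 3 to 5 and 5 to 8. Per1, Clock and Nr1d2 were called in both under all alternatives. Between RVO and control eyes 0 were called, but 1 with library size only, 4 without a filter, with DESeq2, with all 9 samples in 1 fit and at a threshold of 0.05, and 0 to 4 without 1 sample (4 without RVO replicate 2). The genes called were all lower in RVO eyes, and the cause was not tested. Except at the threshold of 0.05, shares of all tested genes under these alternatives are not given here. The counts are therefore no result about clock genes alone.

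With the replicate block, 4, 7 and 0 clock genes were called, as without it, and of the other genes named, Nfil3 and Klf9 in control, and Btrc and Drd4 between RVO and control eyes were lost. Deviations of RVO and control samples of the same number had correlations of -0.131, -0.148 and 0.0711 over genes, and RVO replicate 2 with control replicate 1 had 0.223. With 3 samples per group, such correlations cannot decide whether the numbers pair pools of fellow eyes. As the sources do not say so either, samples were tested as unpaired.

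Log2 fold changes changed sign, without a call, with library size only for Cry1 (0.103), Adcy1 (0.102) and D930015M05Rik (0.181) in RVO and for Per2 (0.131), Nr1d1 (0.169), Btrc (0.0945) and Drd1 (0.0855) in control against untreated eyes. They did so after removal of GC and length trends for Nr1d1 (-0.0492), Tef (-0.0250) and D930015M05Rik (0.0459) in RVO eyes, without a filter for D930015M05Rik (0.0254) in RVO and Nr1d1 (0.0222) in control eyes, and with at least 10 CPM in 3 samples for Nr1d1 (0.0220) in control eyes. Without 1 sample, values ranged from -0.0042 to 0.0878 for Cry2 and from -0.145 to 0.148 for D930015M05Rik in RVO eyes, from -0.0722 to 0.0654 for Nr1d1 and from -0.123 to 0.484 for D930015M05Rik in control eyes, and between RVO and control eyes from -0.531 to 0.0829 for D930015M05Rik.

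The difference in the log2 ratio of Dbp to Arntl between RVO and untreated eyes became 0.50 for Dbp to Clock and 0.77 for Dbp to Npas2. Between control and untreated eyes it became 0.97 for Dbp to Clock, 0.49 for Dbp to Npas2, 0.47 for Nr1d1 to Arntl and 0.68 for Per3 to Arntl. Between RVO and control eyes it became 0.27 for Dbp to Npas2 and -0.0204 for Nr1d1 to Arntl.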
